A study of Mus musculus with 30 samples.

Results

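The 243 chromatin sites described here lie in a pair of intervals of the mouse genome, out of 110808 sites measured in all. They are the 152 sites of chromosome 3 that start between 60 and 65 Mb and the 91 sites of chromosome 18 that start between 60 and 61 Mb (mm10). Both intervals were chosen because naive knockout (KO) cells had more open chromatin there than wild-type (WT) cells, so the naive differences below are given as a description and carry no test. CD4 T cells were taken from lymph nodes and spleen of PKA KO mice and of control mice. Naive cells were enriched, sorted and profiled directly, activated cells were stimulated through CD3 and CD28 for 3 days, and another set was rested with IL7 for 3 days and then given forskolin at 1 ug/mL for 4 hours. ATAC-seq gave open chromatin for the naive and the activated state and RNA-seq gave RNA for all 3 conditions, with 3 KO and 3 WT libraries in each group. The labels name neither the PKA gene that was removed nor the promoter or cell type behind the deletion, and leave unstated if each library is from its own mouse, so a p-value measures the spread between libraries, which may be technical.

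ATAC libraries held 18522373 to 25318916 counts in sites and RNA libraries 7665955 to 11950488 counts. Prkaca, which encodes the alpha catalytic subunit of PKA, was at 2.04 to 2.57 CPM (counts scaled to a common library total) in naive KO libraries and at 29.3 to 39.3 CPM in naive WT libraries, and it was also lower in KO in the other conditions. Prkacb, the gene of the beta subunit, was at 117.0 to 118.4 CPM in naive KO and 110.6 to 126.0 CPM in naive WT libraries. Summed RNA of 8 T cell marker genes was 5245 to 5309 CPM in naive KO and 5355 to 5524 CPM in naive WT libraries.

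Transposase cuts DNA where nucleosomes are sparse, and the reads of ATAC-seq therefore pile up at active promoters and enhancers. PKA is the kinase that cyclic AMP activates, and in T cells it dampens receptor signalling and phosphorylates the transcription factor CREB. On chromosome 3 the dominant T cell gene of the interval is Mbnl1, which encodes an RNA-binding protein that regulates alternative splicing and polyadenylation. The other interval begins with a cluster of immunity-related GTPases, which interferon induces and which act against intracellular pathogens in mice, and it goes on to Cd74, the gene of the invariant chain that accompanies class II molecules.

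Of the gained sites, those at promoters of chromosome 3 can be shown as sequence. Each promoter below is RefSeq's window from 250 bases before to 50 bases after an annotated start of a gene (GRCm38.p6, plus strand, 5′ to 3′). The 3 are shown because the first and second overlap sites that gained in KO cells, while the last lies past the end of the gain. Capitals mark TGACTCA, the AP-1 motif, and would mark TGACG, the half-site of the cyclic AMP response element, on either strand.
Mbnl1, chr3:60472580-60472879: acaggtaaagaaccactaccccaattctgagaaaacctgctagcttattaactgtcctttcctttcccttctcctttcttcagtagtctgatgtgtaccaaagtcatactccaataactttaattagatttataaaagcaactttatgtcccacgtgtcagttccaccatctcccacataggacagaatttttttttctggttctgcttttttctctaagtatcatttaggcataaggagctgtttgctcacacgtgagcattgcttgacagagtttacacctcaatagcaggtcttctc
Gm38326, chr3:60788111-60788410: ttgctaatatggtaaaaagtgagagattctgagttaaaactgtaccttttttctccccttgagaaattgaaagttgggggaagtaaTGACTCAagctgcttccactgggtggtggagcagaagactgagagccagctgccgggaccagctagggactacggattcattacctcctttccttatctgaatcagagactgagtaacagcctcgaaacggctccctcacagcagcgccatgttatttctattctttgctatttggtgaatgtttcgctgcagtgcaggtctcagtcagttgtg
P2ry1, chr3:61002535-61002834: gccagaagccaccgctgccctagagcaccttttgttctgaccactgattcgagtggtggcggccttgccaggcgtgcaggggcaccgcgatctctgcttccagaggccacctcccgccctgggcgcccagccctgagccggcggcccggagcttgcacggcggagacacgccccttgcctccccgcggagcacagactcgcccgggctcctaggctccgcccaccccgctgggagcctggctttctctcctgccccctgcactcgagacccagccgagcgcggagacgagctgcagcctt
Neither the full element TGACGTCA nor TGACG was found on either strand in these 3 windows, and TGACTCA was found once, in the window of Gm38326. Across all 32851 promoter windows of the RefSeq table, 1.79% held TGACGTCA, 20.8% held TGACG and 5.2% held TGACTCA. The Mbnl1 window shares 120 bases with site_3_23, the Gm38326 window 284 bases with site_3_78 and the P2ry1 window 300 bases with site_3_88 (sites are numbered upwards along each interval). GC content was 39.3%, 46.3% and 70.7% in this order, beside a median of 52.7% over all windows.

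In naive cells the called chromosome 3 sites lay within a stretch of 413 kb, with uncalled sites between them. With a site called at an adjusted p under 0.05 (edgeR quasi-likelihood test over all sites with enough counts), 95 of the 152 sites were tested, 22 were higher in KO and 0 lower. The background was 0.816% of 74371 tested sites called higher and 1.29% called lower. All 22 lay between 60408635 and 60821859, where 60 sites were tested, 38 were not called and 56 had a positive log2 fold change. The other 73 tested sites were not called, and 57 of them had a positive log2 fold change. The lower edge is not sharp, since all 8 tested sites between 60 and 60.4 Mb had a positive log2 fold change, with a median of 0.51, and none was called. The nearest of them, at 60395359, had 0.28 (site_3_14). Above the stretch the nearest tested site, at 60954094, had 0.02 (site_3_86). With no tested site between 60821859 and that position, the upper edge is not resolved. From 61 to 65 Mb 0 of 25 tested sites were called, with a median log2 fold change of 0.00. Without KO replicate 3 the count of higher sites was 12, and with the replicate number as a block it was 36.

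Within this stretch the gain had 2 sizes. Over Mbnl1 (60472559 to 60629750) and the 64 kb below it, 15 sites were called, with log2 fold changes from 0.43 to 0.80. From 60720345 to 60795599, in the gene-poor DNA between Mbnl1 and P2ry1 (a purinergic receptor gene), all 6 sites measured were called, and their log2 fold changes ran from 1.03 to 4.61. The last called site, site_3_83 at 60821459, had 0.67 and the largest adjusted p of those called, and it was not called under 10 of the alternatives. Without it the stretch ends at 60795599, with the strong group. Just outside the threshold stood site_3_53 in Mbnl1, at 0.40 ± 0.10 (SE).

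**Figure D1:**
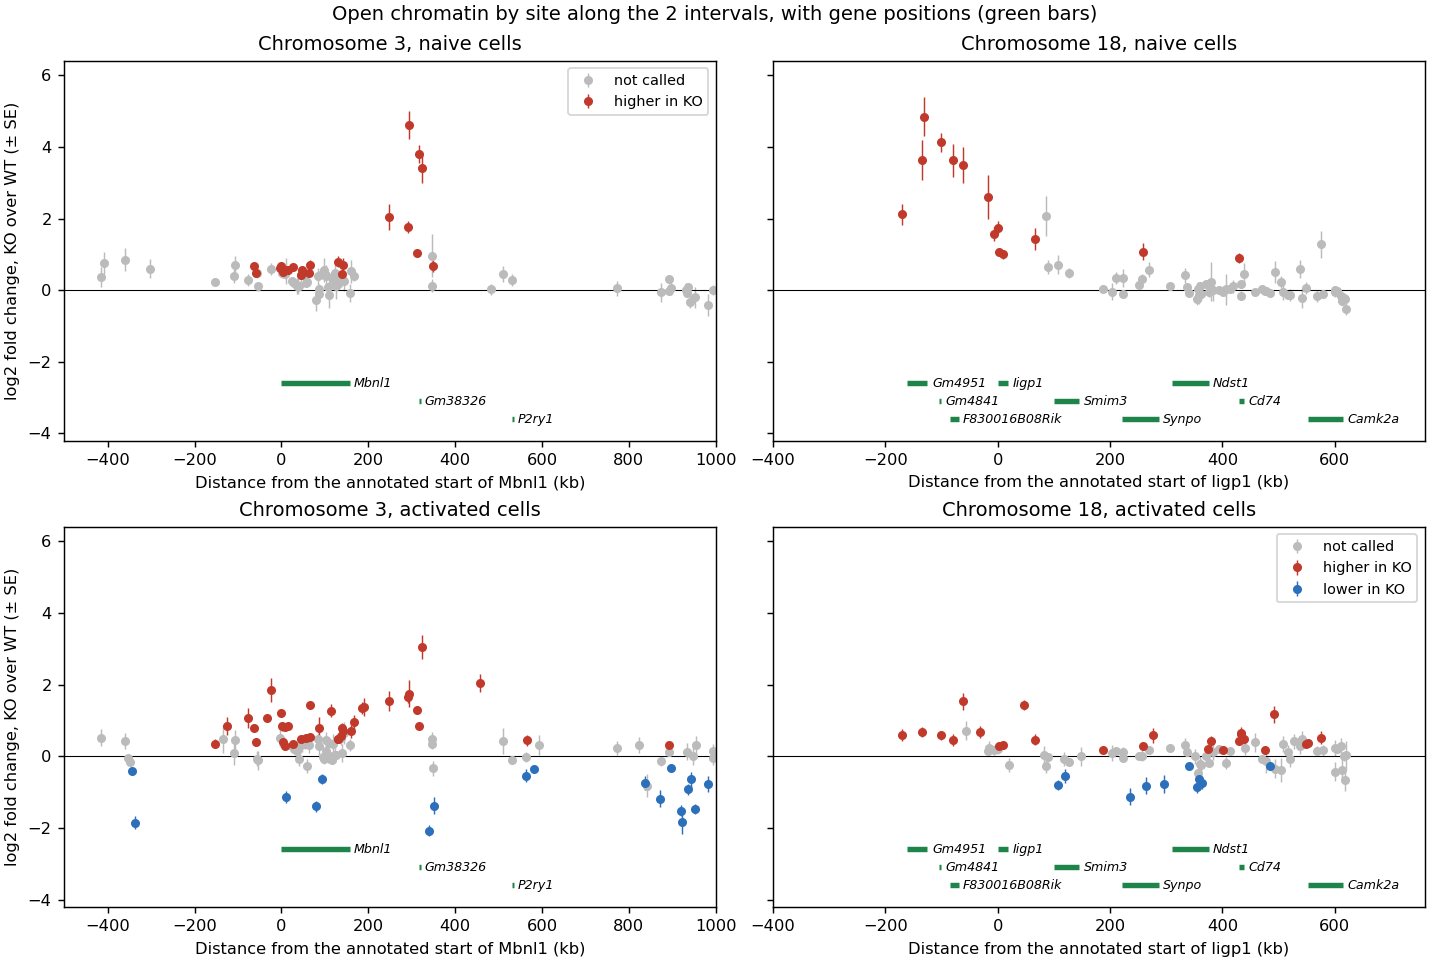
Log2 fold change of each tested site (points, bars show SE) against its distance in kb from the annotated start of Mbnl1 (left) or Iigp1 (right), in naive (top) and activated cells (bottom), with genes as green bars. Naive called sites run from just below Mbnl1 to 192 kb past its end on chromosome 3 and sit mostly at the GTPase genes on chromosome 18.

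The strong chromosome 3 sites were nearly closed in naive WT cells. Site_3_78, at the start of the long non-coding RNA gene Gm38326, held 110, 115 and 147 counts in naive KO libraries and 10, 4 and 12 in naive WT libraries, a log2 fold change of 3.80 ± 0.26 (SE). Site_3_76, at 60765094 to 60765494 and outside any annotated gene, held 49, 65 and 68 counts in KO and 0, 4 and 3 in WT (4.61 ± 0.38). Site_3_79, in the non-coding gene Gm553061, held 23, 44 and 45 counts in KO and 2, 2 and 6 in WT (3.41 ± 0.41). In all 3 the KO libraries stood far above the WT libraries. Site_3_75 held 123, 119 and 122 counts in KO and 35, 47 and 25 in WT, and site_3_74 27, 30 and 40 against 2, 13 and 8. Site_3_77 was open in both genotypes, with 1071, 1044 and 1282 counts in KO and 602, 552 and 493 in WT, and had the smallest change of the 6 (1.03 ± 0.08).

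At Mbnl1 the sites were already open in WT and moved by less. The site at the promoter window shown above, site_3_23, held 186, 206 and 234 counts in naive KO and 154, 140 and 95 in naive WT (0.68 ± 0.11). Site_3_29, 14 kb inside the gene, held 730, 764 and 837 counts in KO and 555, 570 and 438 in WT (0.57 ± 0.07). Site_3_15, the lowest called site at 60408635 and outside a gene, held 180, 233 and 261 against 141, 174 and 105. In each of these 3 the lowest KO library was above the highest WT library, as at 10.3% of all tested sites. Summed over the 69 sites of the stretch, naive KO libraries held 695.3, 664.8 and 736.9 CPM and naive WT libraries 515.5, 487.2 and 494.6 CPM.

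Activated cells kept the chromosome 3 gain. The stretch summed to 612.6, 597.3 and 633.7 CPM in activated KO libraries and to 423.7, 419.1 and 407.0 CPM in activated WT libraries, with no overlap. The log2 ratio was 0.56 (exact permutation test, two-sided p = 0.1, the smallest that 3 against 3 libraries can give). This test gives the same p for any sums without overlap. Activated KO libraries also lay above WT libraries in the chromosome 3 sums from 61 to 65 Mb and from 65 to 68 Mb. The log2 ratio was 0.047 in each. Sums from 57 to 60 Mb overlapped, with a log2 ratio of -0.018. The size of the ratio, rather than the lack of overlap, thus set the stretch apart. Of the 22 sites higher in naive KO cells, 18 were also higher in activated KO cells, 0 were lower and 4 passed in neither direction. Among all 580 sites that were higher in naive KO cells and tested in activated cells, 289 were higher in activated KO cells (49.8%). The median log2 fold change of the 22 sites was 0.67 in naive and 0.63 in activated cells. These fits share no library, but the naive values chose the sites, so the difference between states was not tested.

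Calls were far more common in activated cells, with 15.1% of 106123 tested sites higher and 20.1% lower in KO. Against this background 36 of 83 tested sites between 60 and 61 Mb of chromosome 3 were higher and 7 lower (43.4% and 8.43%). From 61 to 65 Mb 16 of 63 were higher and 16 lower.

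All 6 strong sites were higher in activated KO cells too. Their median log2 fold change was 2.73 in naive and 1.60 in activated cells. Site_3_79 held 70, 70 and 53 counts in activated KO and 3, 8 and 14 in activated WT libraries, a log2 fold change of 3.06 ± 0.33 (SE, edgeR quasi-likelihood adjusted p = 8.62e-06). Site_3_75 held 181, 201 and 204 against 55, 66 and 81 (1.66 ± 0.16). Both changes were close in size to those of naive cells. Site_3_78 opened with activation in both genotypes, to 1411, 1337 and 1335 counts in KO and 912, 865 and 733 in WT, and its difference was then 0.83 ± 0.04 (adjusted p = 5.55e-09). Its WT libraries rose by a log2 fold change of 5.90 with activation and its KO libraries by 2.88. Site_3_76 instead lost counts in activated KO cells, to 19, 16 and 12, with 5, 7 and 3 in WT (1.75 ± 0.38, adjusted p = 0.00219).

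At Mbnl1 and below it the 15 sites called in naive cells had a median log2 fold change of 0.57 in naive and 0.48 in activated cells. Of 58 sites tested there in activated cells 26 were higher in KO and 3 lower, among the latter site_3_28 in Mbnl1, at -1.14 (adjusted p = 0.000101). The 3 with the smallest activated p there were higher in KO. Site_3_23, at the promoter window shown above, held 674, 618 and 659 counts in activated KO and 320, 337 and 272 in activated WT libraries (1.20 ± 0.07, adjusted p = 7.17e-09). Site_3_19, 33 kb below the gene, had 3 to 9 counts in every naive library. After activation it held 1658, 1514 and 1582 counts in KO and 863, 856 and 755 in WT (1.07 ± 0.04, adjusted p = 1.34e-10). Site_3_44, inside Mbnl1, was another site that activation opened, with 329, 318 and 323 counts in KO against 134, 134 and 126 in WT (1.43 ± 0.09, adjusted p = 3.18e-08). The KO libraries lay above the WT libraries at these 3 sites, as at 24.8% of all tested sites.

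Past the strong group the activated sites were mixed. Of 7 tested from 60.8 to 61 Mb 1 was higher in KO and 2 were lower, with a median log2 fold change of 0.35. The higher one, site_3_85, held 43, 38 and 49 counts in activated KO and 14, 9 and 11 in activated WT libraries (2.05 ± 0.25). Site_3_80, 16 kb above site_3_79, held 45, 35 and 32 counts in activated KO and 194, 158 and 168 in activated WT libraries (-2.08 ± 0.16, adjusted p = 1.29e-07). It had at most 5 counts in a naive library. Site_3_83, the outermost called naive site, held 68, 77 and 108 counts in naive KO and 47, 61 and 48 in naive WT, but 41, 27 and 39 in activated KO and 43, 60 and 44 in activated WT (-0.33 ± 0.21, adjusted p = 0.249).

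**Figure D2:**
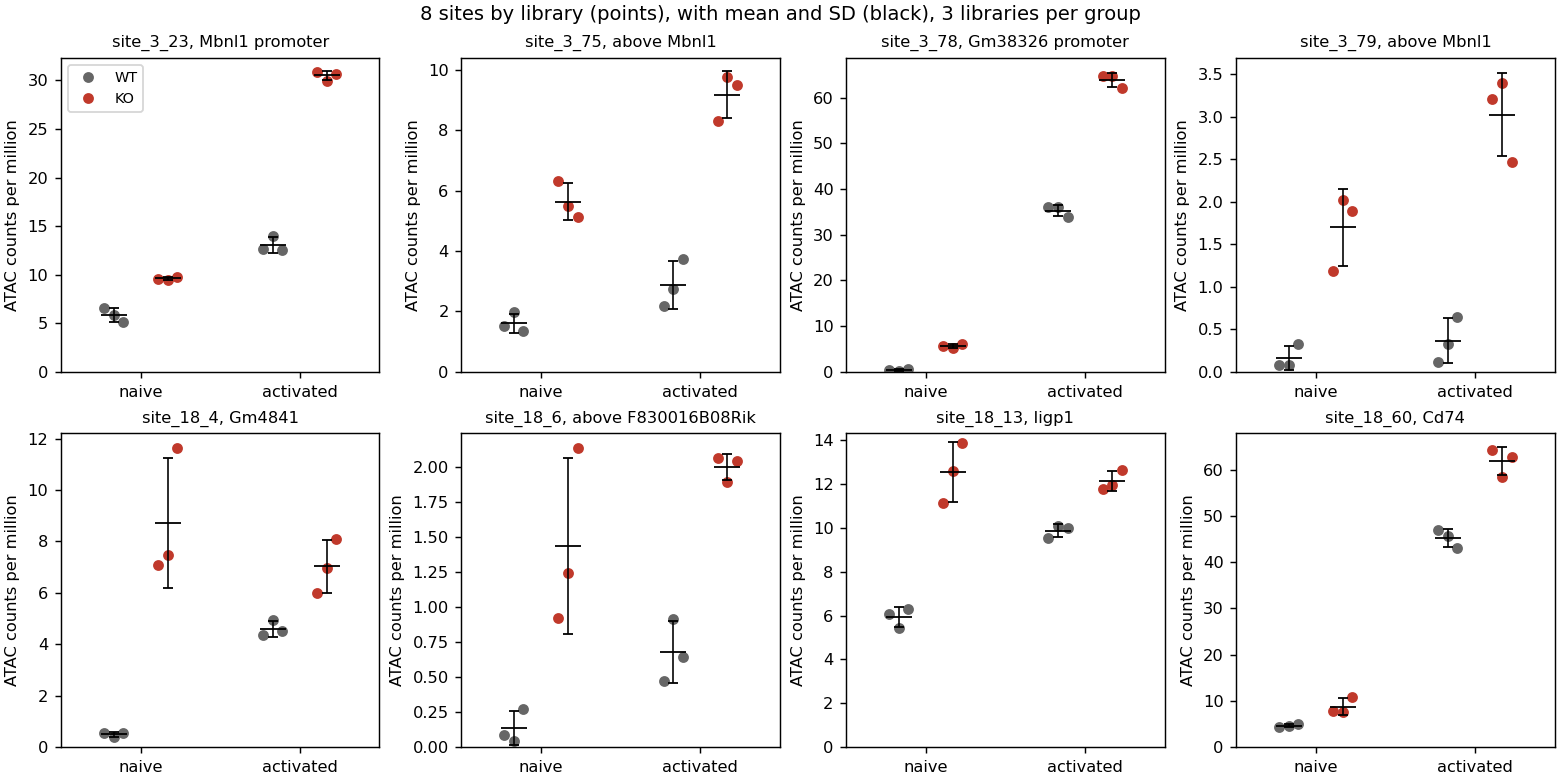
ATAC CPM of 8 sites in each library (points, WT grey, KO red), with mean and SD in black, 3 libraries per group. The KO libraries lie above the WT libraries at all 8 sites in both states. The ratio between genotypes is larger in naive cells at the chromosome 18 sites and at site_3_78. It is close in the 2 states at site_3_75 and site_3_79 and larger in activated cells at site_3_23.

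On chromosome 18 most called sites lay at the GTPase genes. Of 72 sites with a test, 14 had more counts in naive KO libraries at the threshold and 0 had fewer. From the lowest, at 60202175, to 60439455, all 12 tested sites were called, with log2 fold changes from 1.00 to 4.84. In the 500 kb window from 60 Mb 12 of 15 tested sites were called and the median log2 fold change was 2.08, while in the next window 2 of 57 were called with a median of 0.01. Those 2 were site_18_34 in Synpo (1.07) and site_18_60 at the start of Cd74 (0.91), and they carry the called range to 60803923, 602 kb in all. Just inside the threshold stood site_18_9 (2.60 ± 0.62) and just outside it site_18_19 (2.08 ± 0.56), a site of few counts.

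The sites at Gm4951, Gm4841 and F830016B08Rik, members of the immunity-related GTPase family, were almost closed in naive WT cells. Site_18_4, in Gm4841, held 138, 162 and 278 counts in naive KO and 13, 9 and 10 in naive WT libraries (4.13 ± 0.25). Site_18_3, in Gm4951, held 28, 23 and 47 counts in KO and 1, 0 and 2 in WT (4.84 ± 0.54). Site_18_5, in F830016B08Rik, held 24, 32 and 62 against 2, 2 and 5 (3.63 ± 0.45). The KO libraries were above the WT libraries throughout, and KO replicate 3 had the highest count at each of the 3 sites. At Iigp1, the best studied gene of this cluster, the sites were open in WT and the gain was smaller. Site_18_12, at its start, held 93, 108 and 167 counts in KO and 42, 39 and 27 in WT (1.74 ± 0.18), and site_18_13, 2 kb inside it, 217, 274 and 331 against 141, 130 and 117 (1.06 ± 0.11).

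At the chromosome 18 sites called in naive cells the difference was smaller after activation. Of the 14 sites 13 were tested in activated cells, where 10 were higher in KO and 0 lower. Their median log2 fold change was 1.74 in naive and 0.43 in activated cells, and each of the 13 was smaller in activated cells. These sites were chosen for their naive difference, and among all 580 sites chosen in this way 512 were smaller in activated cells, with medians of 0.80 and 0.32. Summed over the whole interval the log2 ratio of KO to WT was 0.11 in naive and 0.13 in activated cells. Over the called range alone, the measure used for the chromosome 3 stretch, it was 0.22 in naive and 0.12 in activated cells. Over the whole interval 25 of 89 tested sites were higher and 10 lower in activated KO cells, or 12 and 6 by DESeq2, 16 and 6 without KO replicate 2, and 16 and 5 without KO replicate 3. The change with activation uses the naive libraries that chose the sites, so its values are a description. In WT cells 12 of the 14 sites opened with activation and 0 closed (median log2 fold change 1.87), while in KO cells 6 opened and 5 closed (median -0.18). Of the 22 chromosome 3 sites 5 opened and 12 closed in each genotype (median -0.53 in WT and -1.26 in KO). Over all 110797 sites tested for activation 51.4% opened and 38.5% closed in WT cells, and 49.7% opened and 38.8% closed in KO cells.

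At site_18_4 the activated counts were 131, 144 and 174 in KO and 110, 119 and 98 in WT (0.59 ± 0.13, adjusted p = 0.00273). Site_18_12 at the start of Iigp1 held 141, 124 and 147 in activated KO and 156, 135 and 104 in activated WT, which overlapped (0.20 ± 0.13, adjusted p = 0.26). A clear difference remained at site_18_6, 8 kb above F830016B08Rik, with 45, 39 and 44 counts in activated KO and 12, 22 and 14 in activated WT (1.54 ± 0.24, adjusted p = 0.000189). Site_18_16, 28 kb above Iigp1, had at most 5 counts in any naive library, and held 145, 148 and 167 in activated KO against 59, 57 and 69 in activated WT (1.44 ± 0.14, adjusted p = 2.5e-06).

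**Figure D3:**
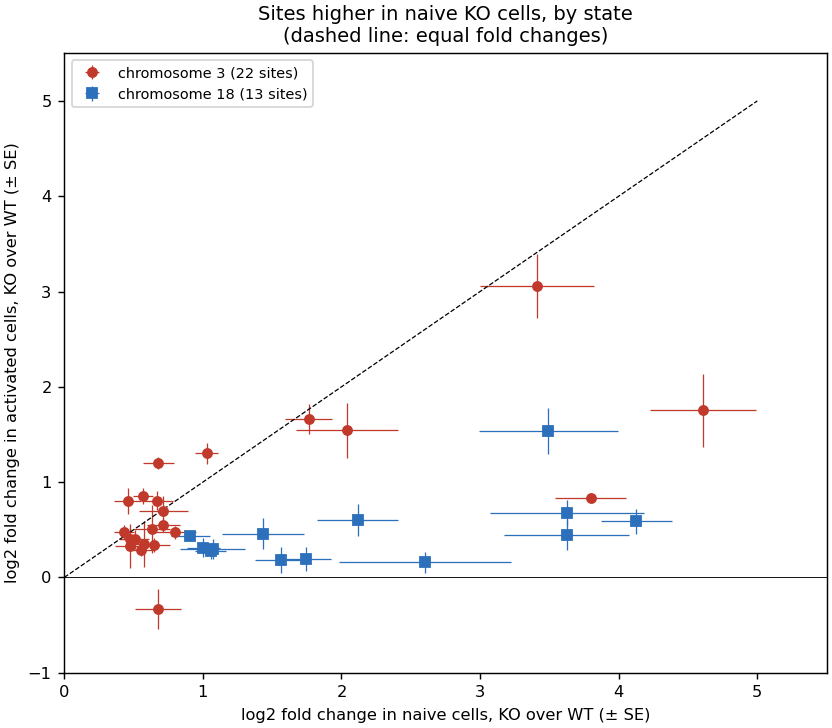
Log2 fold change in activated cells against that in naive cells for the sites higher in naive KO cells (bars show SE, dashed line marks equal changes). Of the chromosome 3 sites (22, red) 16 lie below the line, with site_3_78 (3.80 in naive, 0.83 in activated cells) and site_3_76 (4.61 and 1.75) far below it. All 13 chromosome 18 sites (blue) lie below the line.

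At Cd74 the site at the gene start was the 1 called in naive cells among 4 tested. Of 5 tested there in activated cells 4 were higher in KO and 0 lower, beside 15.1% higher and 20.1% lower among all tested sites. Site_18_60 held 152, 166 and 257 counts in naive KO and 100, 107 and 93 in naive WT, and then 1401, 1206 and 1350 in activated KO and 1189, 1094 and 935 in activated WT (0.43 ± 0.05, adjusted p = 7.21e-06). Site_18_61, 2 kb inside the gene, held 225, 279 and 345 counts in naive KO and 286, 259 and 202 in naive WT, which overlapped. In activated cells it held 214, 185 and 237 in KO and 170, 151 and 128 in WT (0.63 ± 0.11, adjusted p = 0.000448). Between Synpo and Cd74, site_18_44 in Ndst1, a heparan sulfate enzyme gene, was lower in activated KO cells, with 75, 66 and 55 counts against 136, 151 and 104 (-0.86 ± 0.15, adjusted p = 0.000518).

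Summed over the neighbouring 3 Mb, differences between genotypes were small. Sites from 57 to 60 Mb of chromosome 3 summed to 795.0 to 817.6 CPM in naive KO and 831.8 to 837.3 CPM in naive WT libraries, and those from 65 to 68 Mb to 619.0 to 634.8 and 621.4 to 638.2 CPM. On chromosome 18 the log2 ratio of KO to WT sums was -0.06 from 57 to 60 Mb and 0.04 from 61 to 64 Mb in naive cells. Nearest to the intervals, 0 of 6 tested sites from 59.5 to 60 Mb of chromosome 3 were called, with a median log2 fold change of 0.34, and 1 of 23 was higher in KO from 61 to 61.5 Mb of chromosome 18. Among 1587 windows of 1 Mb with 10 or more tested sites, 1213 had no site higher in naive KO cells. The chromosome 3 window from 60 Mb had the highest share of called sites and the chromosome 18 window the fourth highest. Between them ranked the window of chromosome 9 from 97 Mb, with 3 of 10 sites, and that of chromosome 3 from 55 Mb, with 4 of 18. In activated cells the chromosome 3 and chromosome 18 windows from 60 Mb ranked 30 and 169 of 1801.

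**Figure D4:**
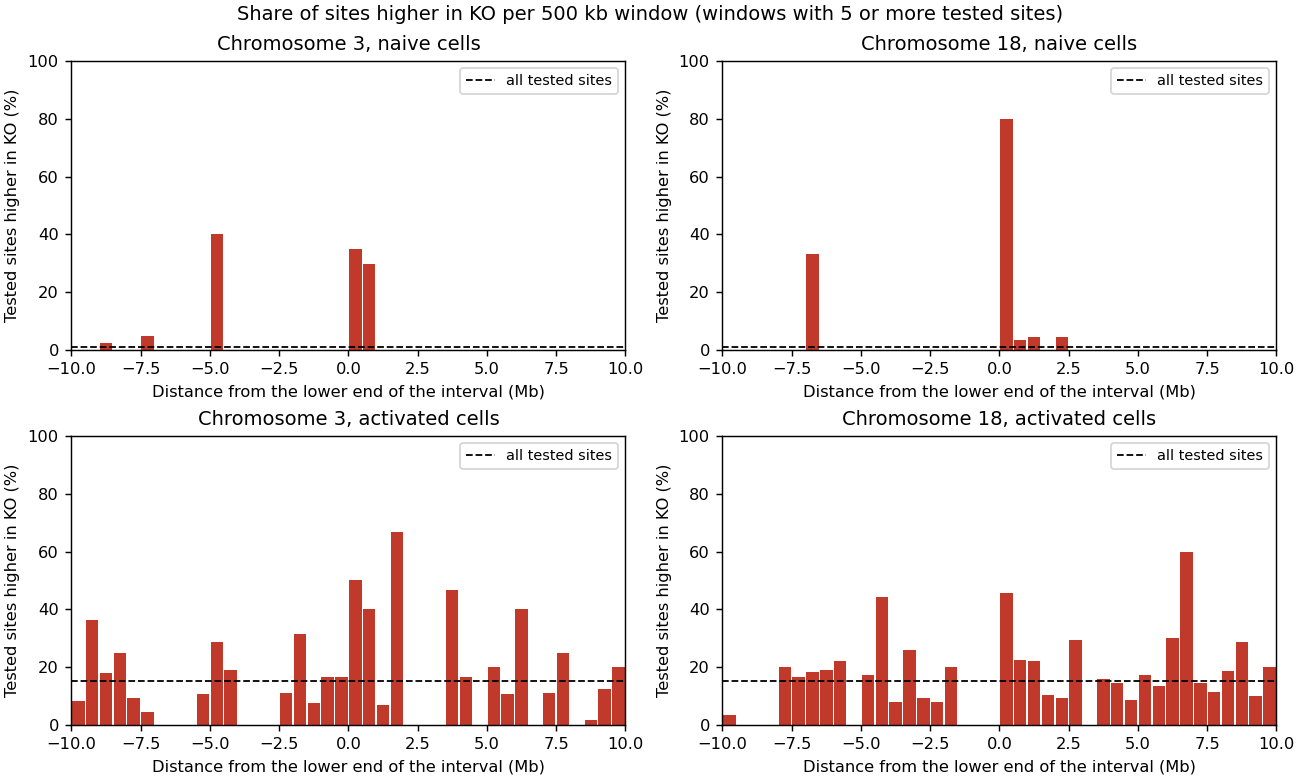
Share of tested sites called higher in KO per 500 kb window, against the distance in Mb from the lower end of each interval, in naive (top) and activated cells (bottom), with the share over all tested sites as a dashed line. Naive calls concentrate in the 2 chromosome 3 windows from 60 Mb (34.8% and 29.8%) and the first chromosome 18 window (80%), while a chromosome 3 window from 55 Mb (40%) and 1 of chromosome 18 from 53 Mb (33.3%) also stand out, and activated calls are spread over many windows.

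RNA was not used to choose the intervals, although the naive results of Iigp1 and Cd74 were known when they were chosen. Of 102 genes annotated in the intervals 42 were in the RNA table and 20 had enough counts for a test in naive or activated cells. Gm38326 and Gm553061 were not matched in the table and have no RNA value here. In naive cells 0 of 7 tested chromosome 3 genes passed, and 5 of 13 chromosome 18 genes were higher in KO with 0 lower, beside 0.125% higher and 0.117% lower among 11980 tested genes. In bulk RNA and ATAC data a change in the share of cells and a change per cell cannot be told apart. Reads of the GTPase genes, which resemble each other, could be divided among them by the counting, so the level of a single member is uncertain.

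Mbnl1 RNA was at 1352, 1202 and 1371 CPM in naive KO and 1104, 1114 and 1024 CPM in naive WT libraries. The KO libraries were the higher, but the change did not pass over all genes (log2 fold change 0.25 ± 0.08 SE, edgeR quasi-likelihood adjusted p = 0.546). In activated cells it was higher in KO, with 745.4, 816.7 and 887.1 CPM in KO and 458.9, 573.1 and 520.7 CPM in WT (0.63 ± 0.08, adjusted p = 3.61e-05). After forskolin it was at 1514, 1572 and 1538 CPM in KO and 1536, 1536 and 1440 CPM in WT, which overlapped (0.01 ± 0.03, adjusted p = 0.775). It was the 1 chromosome 3 gene called in activated cells, where 5.89% of all tested genes were higher and 9.04% lower. Rap2b, a small GTPase gene above the stretch, was at 105.6, 110.5 and 105.0 CPM in naive KO and 104.5, 101.3 and 110.5 CPM in naive WT (adjusted p = 1).

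P2ry1 was close to the floor in naive cells, with 0, 2 and 4 counts in KO and 0, 0 and 1 in WT. After forskolin it had 23, 7 and 15 counts in KO and 1, 0 and 1 in WT, too few to enter the test.

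The 4 GTPase genes were all higher in naive KO cells. Gm4951 was at 5.77, 4.68 and 7.27 CPM in KO and 0.106, 0.0886 and 0.242 CPM in WT (5.28 ± 0.43, adjusted p = 2.81e-06), and Gm4841 at 6.90, 4.89 and 8.84 CPM against 0.425, 0.177 and 0.242 CPM (4.56 ± 0.37, adjusted p = 2.81e-06). F830016B08Rik had 9, 5 and 17 counts in KO and 0 in each WT library. Against 3 counts over the WT group this is at least 10.9-fold higher in KO, and the call was lost without KO replicate 1 or 3 or WT replicate 1 or 2 (adjusted p up to 0.142). Iigp1 was at 89.6, 87.8 and 107.7 CPM in KO and 48.0, 35.3 and 43.2 CPM in WT (1.16 ± 0.10, adjusted p = 8.85e-06). No KO library overlapped a WT library in any of the 4. The same held for Igtp and Tgtp1, GTPase genes elsewhere that were not called, but not for Irgm1. The share of all tested genes without overlap was not counted.

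In activated cells the levels of these genes came together. Iigp1 stood at 255.1, 271.8 and 293.1 CPM in KO and 279.8, 308.5 and 303.6 CPM in WT (-0.14 ± 0.09, adjusted p = 0.345). Gm4841 was at 9.20, 9.85 and 11.9 CPM against 9.28, 8.83 and 6.32 CPM (0.31 ± 0.20, adjusted p = 0.337). Gm4951 was still higher, with 287, 204 and 277 counts against 213, 132 and 140 counts (0.64 ± 0.17, adjusted p = 0.0171), a call lost without KO replicate 1 or 3 or WT replicate 2 or 3 (adjusted p up to 0.1). The genotype difference was smaller in activated than in naive cells for Gm4951, Gm4841 and Iigp1, by a log2 fold change of -4.64 ± 0.51, -4.24 ± 0.44 and -1.30 ± 0.14 in the interaction term (adjusted p = 1.76e-05, 1.2e-05 and 1.76e-05), a comparison added after the data were seen in which 3.7% of all tested genes passed. For Mbnl1 the same term was 0.38 with an adjusted p of 0.0886.

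After forskolin the difference was again large. Iigp1 was at 48.0, 47.7 and 39.1 CPM in KO and 10.8, 12.5 and 15.7 CPM in WT (1.75 ± 0.12, adjusted p = 3.39e-09). Gm4951 was at 17.4, 9.46 and 7.43 CPM in KO and 0.261, 0.124 and 0 CPM in WT (6.41 ± 0.71, adjusted p = 0.000412), and F830016B08Rik at 26.2, 19.9 and 8.88 against 0.391, 0.867 and 0.322 CPM (5.08 ± 0.75, adjusted p = 0.00774). Gm4841 was at 10.4, 7.02 and 2.72 CPM against 0.522, 0.620 and 0.537 CPM (3.54 ± 0.66, adjusted p = 0.00607, or 0.0546 without WT replicate 3). KO replicate 3 had the lowest KO value of all 4 genes here, and still lay above every WT library.

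Of 13 tested chromosome 18 genes 7 were higher and 2 lower in forskolin-treated KO cells, beside 19.7% higher and 18.8% lower among 11658 tested genes. The other 3 higher genes were Camk2a, a calmodulin-dependent kinase gene (1.04 ± 0.29), Tcof1, which acts in ribosomal RNA synthesis (0.34 ± 0.04), and Ndst1 (0.26 ± 0.05). Dctn4, a dynactin subunit gene, was lower (-0.42 ± 0.05), as was Smim3 (-1.21 ± 0.31). Smim3 was also lower in activated KO cells, at 3.93, 2.99 and 3.31 CPM against 7.94, 6.26 and 4.83 CPM (-0.92 ± 0.24, adjusted p = 0.0171), a call lost without KO replicate 2 or 3 or WT replicate 1 (adjusted p up to 0.0833).

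**Figure D5:**
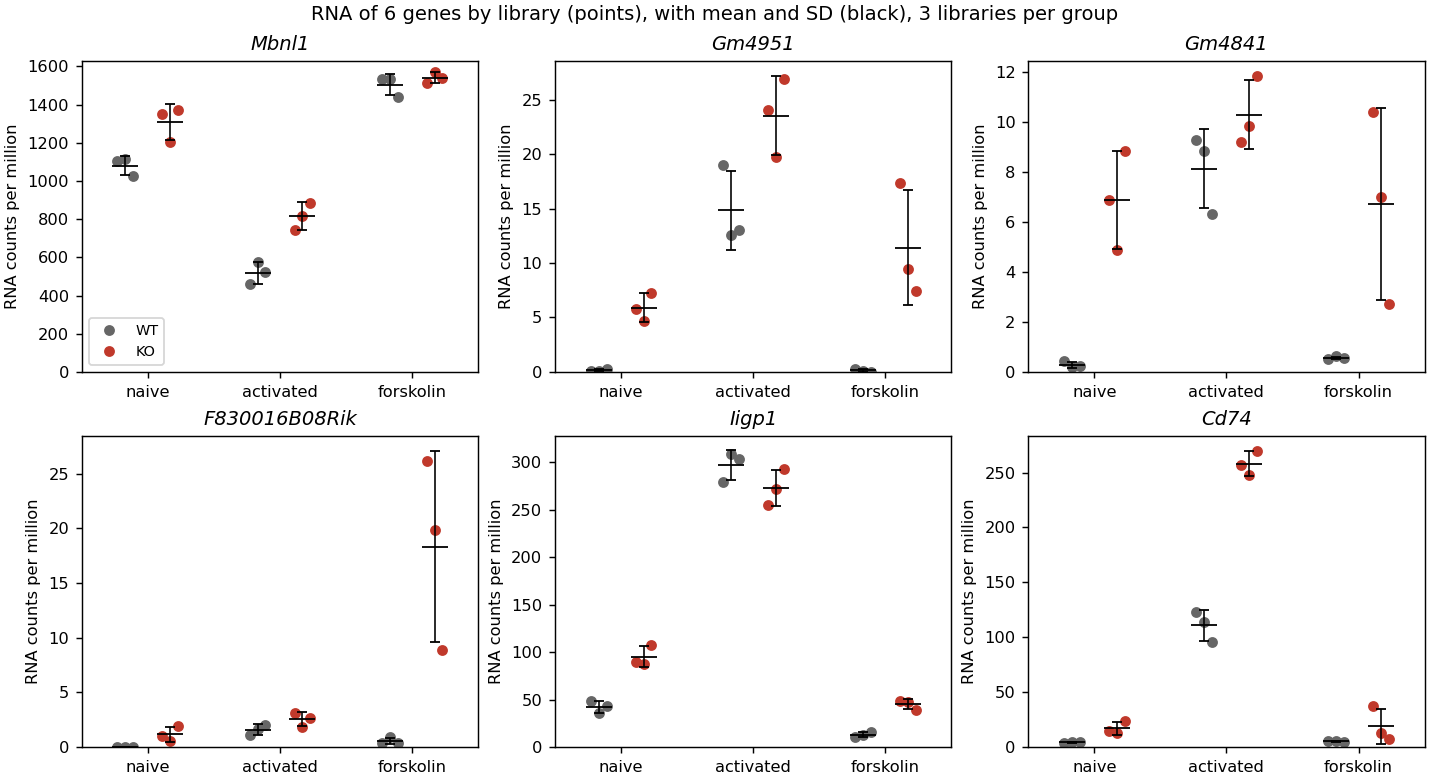
RNA CPM of 6 genes in each library (points, WT grey, KO red) in naive, activated and forskolin-treated cells, with mean and SD in black, 3 libraries per group. Mbnl1 differs most in activated cells, and the 4 GTPase genes differ in naive and forskolin-treated cells.

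Interferon-inducible GTPase genes elsewhere in the genome were examined beside those of chromosome 18. Of 18 tested genes of this family, a list that leaves out Gm4841, 3 passed as higher in naive KO and 0 as lower. These were Gm4951, F830016B08Rik and Iigp1, beside 0.125% higher among all tested genes. The other 15, on chromosomes 3, 5 and 11, had log2 fold changes from 0.01 (Gbp7) to 0.59 (Gbp3). Of 68 tested sites within 10 kb of these genes 4 were higher in naive KO cells, beside 0.816% of all tested sites. For the members on chromosome 18, which were chosen on that measure, it was 9 of 9. After forskolin 17 of the 18 were higher in KO and 0 lower, beside 19.7% higher and 18.8% lower among all tested genes. Among the 17 were Gbp4 (1.20), Tgtp1 (1.03) and Gbp6 (0.94).

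Cd74 was higher in KO in naive and activated cells. It was at 14.1, 12.5 and 23.9 CPM in naive KO and 3.29, 4.52 and 4.59 CPM in naive WT (2.0 ± 0.26, adjusted p = 0.00857, or 0.0777 without WT replicate 2 and 0.0714 without WT replicate 3). In activated cells it was at 257.1, 247.4 and 269.8 CPM in KO and 123.3, 114.3 and 95.5 CPM in WT (1.19 ± 0.16, adjusted p = 0.000247). After forskolin KO replicate 1 stood apart, with 37.1 CPM beside 12.4 and 7.43 CPM, against 5.61, 5.20 and 4.62 CPM in WT (1.88 ± 0.79, adjusted p = 0.15). Without that library the difference was 0.92 with an adjusted p of 0.000601. DESeq2 gave an adjusted p of 0.0283 with it. The same KO library also stood apart for other class II genes after forskolin. It held 128 counts of H2-Aa beside 14 and 6, 76 of H2-Ab1 beside 9 and 3, and 59 of H2-Eb1 beside 13 and 6. For H2-DMa it did not stand apart, with 329 counts beside 280 and 280. Of the myeloid markers, Lyz2 had 14 counts in this library beside 0 and 2, but Cst3 had 234 beside 212 and 181. Of 10 tested class II presentation genes, Cd74 and H2-DMa passed in naive cells and 5 passed in activated cells, all higher in KO. Among all tested genes 0.125% were higher in naive and 5.89% in activated KO cells.

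Cells other than T cells also express Cd74. Summed RNA of 8 B cell markers was 297.6 to 324.4 CPM in naive KO and 300.9 to 319.2 CPM in naive WT libraries. Nearly all of it was Ighm, with means of 304.7 (KO) and 308.5 CPM (WT). Mean Cd79a was 3.49 CPM in the KO and 1.92 CPM in the WT group with no overlap, Cd79b 1.79 and 0.913 CPM and Ms4a1 0.689 and 0.186 CPM with overlap. After activation it was 170.8 to 198.0 CPM in KO and 106.4 to 132.2 CPM in WT, with Pax5 and Blk at 0 in KO and Blk at 0 in WT. After forskolin it was 325.8 to 337.1 CPM in KO and 168.7 to 190.6 CPM in WT. Summed RNA of 9 dendritic and myeloid markers was 30.0 to 36.0 CPM in naive KO and 32.4 to 39.2 CPM in naive WT libraries, and 27.8 to 30.4 and 35.6 to 44.2 CPM in activated libraries. Summed RNA of markers of other cells was also higher in naive KO libraries with no overlap. Erythroid markers summed to 6.83 to 15.0 CPM in KO and 1.70 to 6.53 CPM in WT, NK markers to 0.792 to 1.79 and 0.443 to 0.604 CPM, and CD8 T cell markers to 26.1 to 27.9 and 23.2 to 23.9 CPM. Of these 4 erythroid, 2 NK and 1 CD8 T cell marker were tested in naive cells, and 0 were called. No NK marker had more than 10 counts in a naive library. The CD8 sum was nearly all Cd8b1, with means of 26.0 (KO) and 23.1 CPM (WT), while Cd8a overlapped. The part of these cells in the Cd74 and other results was not tested.

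The authors' deposited table calls fewer sites. In naive cells it has an FDR under 0.05 for 3 chromosome 3 sites and 5 chromosome 18 sites, all higher in KO, out of 12 higher sites in all (0.0108% of 110808, with 0.00632% lower). The 3 and 5 sites span 30.5 and 73.8 kb. In activated cells the authors' deposited table calls 7 chromosome 3 sites higher and 10 lower, and 2 chromosome 18 sites higher, beside 0.519% higher and 4.64% lower overall. In the naive part of the authors' deposited table the p-values are largest at a log2 fold near 0.6 (median 0.954), not near 0 (median 0.256), among sites with a mean of at least 100 counts.

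Away from the called stretch, the rest of the chromosome 3 interval changed mainly in activated cells. From 61 to 61.5 Mb 2 of 29 tested sites were higher and 11 lower in activated KO cells, with a median log2 fold change of -0.03. From 61.5 to 62 Mb 6 of 9 were higher and 1 lower, with a median of 1.05, beside 15.1% higher and 20.1% lower over all sites. The largest difference was at site_3_123, at 61659058 and 290 kb above Rap2b, chosen here after its values were seen. It held 26, 25 and 18 counts in activated KO and 0, 2 and 1 in activated WT libraries (4.49 ± 0.52, edgeR quasi-likelihood adjusted p = 9.98e-06), and 3, 6 and 3 against 0, 0 and 4 counts in naive cells.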

How the data were processed

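The authors deposited 1 ATAC table for naive and 1 for activated cells, with raw counts per site and library, log2 folds, and p-values with their FDR, and RNA tables of raw counts per gene (mm10, per the submitters' processing notes). The aligner, counter and peak caller are not given in the sources used here. The members and gene lists were chosen with earlier results of these data known.

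Counts of each state were fitted over all sites with edgeR 4.0.16 in R 4.3.3 (filterByExpr, TMM factors, robust quasi-likelihood test), with Benjamini-Hochberg adjustment over all tested sites and a threshold of 0.05. RNA of naive and activated cells shared 1 fit, and forskolin-treated cells had their own. All 12 ATAC libraries shared 1 fit for the change with activation. CPM values divide by a library's total. Scripts were tested on simulated counts. Features without a gene symbol, 0.128% to 0.159% of RNA counts, were left out.

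The naive extent runs outward from called sites until 10 tested sites in a row are not called. Region sums were compared by an exact permutation test. Gene positions are RefSeq's on GRCm38.p6. Named sites are, in each interval, the 6 tested with the smallest naive p, the 6 with the smallest activated p, the outermost called site on each side, and those next to the naive threshold. Sites and genes named beside these were chosen after their values were seen. Named genes are Mbnl1, Iigp1, Cd74, those called in any RNA comparison, and those at named sites.

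Same-numbered KO and WT libraries deviated together in the ATAC data (correlations of 0.106 to 0.35) and in activated RNA (0.207 to 0.518), which was taken as pairing there. The main fits used the groups alone, so the calls and p-values given above ignore this pairing. It entered only as the replicate block, an alternative. In naive RNA (-0.0967 to 0.392) and forskolin RNA (0.0775 to 0.217) not every pair passed 0.1. Alternatives were other size factors (RLE, library totals), other filters, DESeq2 1.42.0, an FDR of 0.01, the replicate block, the authors' FDR and leaving out each library.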

Additional observations from a re-analysis of the deposited data

Results flagged for a closer look

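For 5 genes of the chromosome 18 interval the size of the genotype difference changed with activation, as tested by the interaction of genotype and activation (edgeR quasi-likelihood test, adjusted over 11980 genes, of which 3.7% passed). The difference of the genotype effects, activated minus naive, was -4.64 ± 0.51 (SE) for Gm4951, -4.24 ± 0.44 for Gm4841, -5.94 ± 1.35 for F830016B08Rik and -1.30 ± 0.14 for Iigp1 on the log2 scale. Their adjusted p-values were 1.76e-05, 1.2e-05, 0.0202 and 1.76e-05. Smim3 was at -5.60 ± 1.32 (adjusted p = 0.0258), with 1, 3 and 4 counts in naive KO and 0 in each naive WT library. As F830016B08Rik and Smim3 have no naive WT count, the size of their values depends on the fit's prior count.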

How the results depend on the processing

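Of 338 values of named naive sites under the alternatives 305 kept their direction and side of the threshold and 0 reversed, of 404 values of named activated sites 370 and 1, and of 599 values of named genes 570 and 7. The reversals were of uncalled differences near 0 when 1 library was left out. Over the libraries left out, site_3_53 ranged from -0.018 to 0.45 in activated cells, Ndst1 from -0.023 to 0.11 in naive and -0.016 to 0.14 in activated cells, Tcof1 from -0.13 to 0.034 in naive and -0.095 to 0.019 in activated cells, and Mbnl1 after forskolin from -0.018 to 0.035.

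The authors' FDR gave 3 chromosome 3 and 5 chromosome 18 sites higher in naive cells, spanning 30.5 and 73.8 kb. In activated cells it gave 7 higher and 10 lower sites on chromosome 3, and 2 higher and 0 lower on chromosome 18. With the replicate block 36 chromosome 3 sites were higher in naive cells, and the block changed no other count by over 1.5 times, though it called site_3_53 and site_18_19. A filter at a mean of 1 CPM left 9 naive chromosome 18 sites. On activated chromosome 18 DESeq2 called 12 sites higher and 6 lower, and an FDR of 0.01 called 14 and 5, with 2 genes in activated RNA.

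Leaving out 1 library gave 12 to 25 and 11 to 15 higher naive sites on chromosomes 3 and 18. In activated cells it gave 47 to 62 higher and 19 to 22 lower sites on chromosome 3, and 16 to 22 and 5 to 9 on chromosome 18. It gave 3 to 5 called genes in naive and 2 to 5 in activated RNA. After forskolin each gave 10 called genes beside 9 with all libraries, and the added gene varied (P2ry1, Cd74 or Rps14, and without WT replicate 3 P2ry1 and E130311K13Rik with Gm4841 lost). The lowest counts came without naive KO replicate 3 (12 sites), naive WT replicate 2 (3 genes) and activated KO replicate 3 (2 genes, and 16 and 5 chromosome 18 sites, with 16 and 6 without KO replicate 2).

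The log2 ratio of summed counts was 0.32 and 0.31 on chromosome 3 and 0.11 and 0.13 on chromosome 18, in naive and activated cells. Sites over 1 kb from a gene edge gave 0.38 on chromosome 3 in naive cells and 0.091 on chromosome 18 in activated cells, where TMM sizes gave 0.11. Without the sites called in naive KO cells, an alternative chosen after the data were seen, the ratios were 0.15, 0.17, 0.027 and 0.083. The cause of these shifts was not tested. Depth limits the size of a fold change at sites of few counts, such as site_18_3 with 0 to 2 counts in naive WT libraries.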
